A study of Homo sapiens with 2 samples.

Results

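The genes described here encode the machinery of oxidative phosphorylation, from both the nuclear and the mitochondrial genome. They were taken by symbol from the 36601 rows of the files: the subunit families of complex I (NDUFA, NDUFB, NDUFC, NDUFS and NDUFV), the 4 succinate dehydrogenase genes SDHA to SDHD, and the UQCR, COX4 to COX8 and ATP5 families, with the protein genes of the mitochondrial genome. Of 112 rows with such symbols, 108 had at least 10 unique molecular identifiers (UMIs, 1 per captured transcript) over both libraries and are the members. They comprise 13 mitochondrial genes and 95 nuclear rows, and the nuclear rows are 84 subunit genes, 8 complex I assembly factors (NDUFAF) and 3 noncoding rows. The 4 rows below the minimum were COX8C, with 2 UMIs, both in LNCaP_FGC, and COX4I2, COX6A2 and COX7A1, with 0 in both.

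In the respiratory chain, complexes I and II pass electrons from NADH and succinate to coenzyme Q, complex III passes them on to cytochrome c, and complex IV passes them to oxygen. Complexes I, III and IV pump protons out of the mitochondrial matrix, and complex V, the ATP synthase, lets them back in to make ATP. Complex II is encoded in the nucleus alone. The other complexes combine nuclear subunits, made in the cytosol and imported, with subunits made inside the organelle from mitochondrial DNA. Their assembly therefore draws on transcripts of both genomes. In prostate tissue, the luminal epithelium is known for exporting citrate rather than oxidizing it, and prostate carcinoma cells for oxidizing more of it.

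Single-cell RNA-Seq (10x Genomics 3′ chemistry, which counts transcripts at their poly(A) end) was performed on LNCaP_FGC, the fast-growing colony of the LNCaP lymph node prostate carcinoma line, and on LNCaP_C4-2B, its castration-resistant descendant. Both were cultured in RPMI1640 with 10% FBS and 1% penicillin/streptomycin without other treatment. LNCaP_FGC is a mixed population that was never cloned, and 1 library was made from each line. There are therefore no replicates and no significance tests: the intervals given are 95% intervals of counting error, and since the batch label differs as well, batch and strain cannot be told apart.

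Each library held 1850 cells and a mean of 19000 UMIs per cell, the totals having been equalized by the authors. No barcode was shared. Of all UMIs, mitochondrial genes took 6.27% in the LNCaP_FGC library and 8.35% in the other, ribosomal protein genes took 23.2% and 28.2%, the nuclear RNA MALAT1 stood at 20773 and 14337 CPM (UMIs scaled to a fixed library total, 1 UMI being 0.0284 CPM), and the median cell had 4909.5 and 4133 genes. The part of these differences in the results below was not tested. The prostate luminal markers KLK3 (781 and 2770 CPM), KLK2 (163 and 760 CPM), KRT18 (244 and 742 CPM), KRT8 (257 and 208 CPM) and HOXB13 (158 and 120 CPM) were present in both lines. Summed markers of fibroblasts (5.06 and 0.853 CPM), immune cells (1.48 and 2.16 CPM) and endothelium (3.50 and 0.910 CPM) were near 0, with COL1A2, DCN, PTPRC, CD3E and CDH5 at 0 in both libraries.

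The median of 17897 genes with at least 10 UMIs had a CPM log2 ratio of -0.49 (LNCaP_C4-2B against LNCaP_FGC). Leaving mitochondrial and ribosomal protein genes out of the library totals moves every log2 ratio up by 0.15 of this. Both of 2 scales are used: the CPM ratio itself, and the log2 ratio relative to that median gene, which lies 0.49 above it. A gene is called higher or lower where it stood at least 1.5-fold above or below the median gene. By this rule 26.0% of all genes were higher and 26.4% lower, and by the CPM ratio itself 13.6% were higher and 45.2% lower.

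The nuclear members stood above the typical gene in LNCaP_C4-2B. Of the 95, 52 (54.7%) were higher, 3 were lower and 40 lay within 1.5-fold of the median gene, and their median relative log2 ratio was 0.63. By CPM, 22 were higher and 15 lower, and 59 of the 95 had a CPM ratio over 1, against 79 above the median gene, so the direction of members with a relative log2 ratio between 0 and 0.49 depends on the scale. Together they held 27847 CPM in LNCaP_FGC and 30864 CPM in LNCaP_C4-2B, a ratio of 1.11 (95% interval 1.11 to 1.11). These genes are short and well expressed, and genes of that kind were also more often higher in LNCaP_C4-2B: 27.4% of genes with a mean of at least 20 CPM, 34.9% of genes spanning under 20 kb, and 42.0% of genes with both properties. Among the 59 nuclear members with both, 36 (61.0%) were higher, with a median relative log2 ratio of 0.72 against 0.40 for all 2138 such genes.

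**Figure D1:**
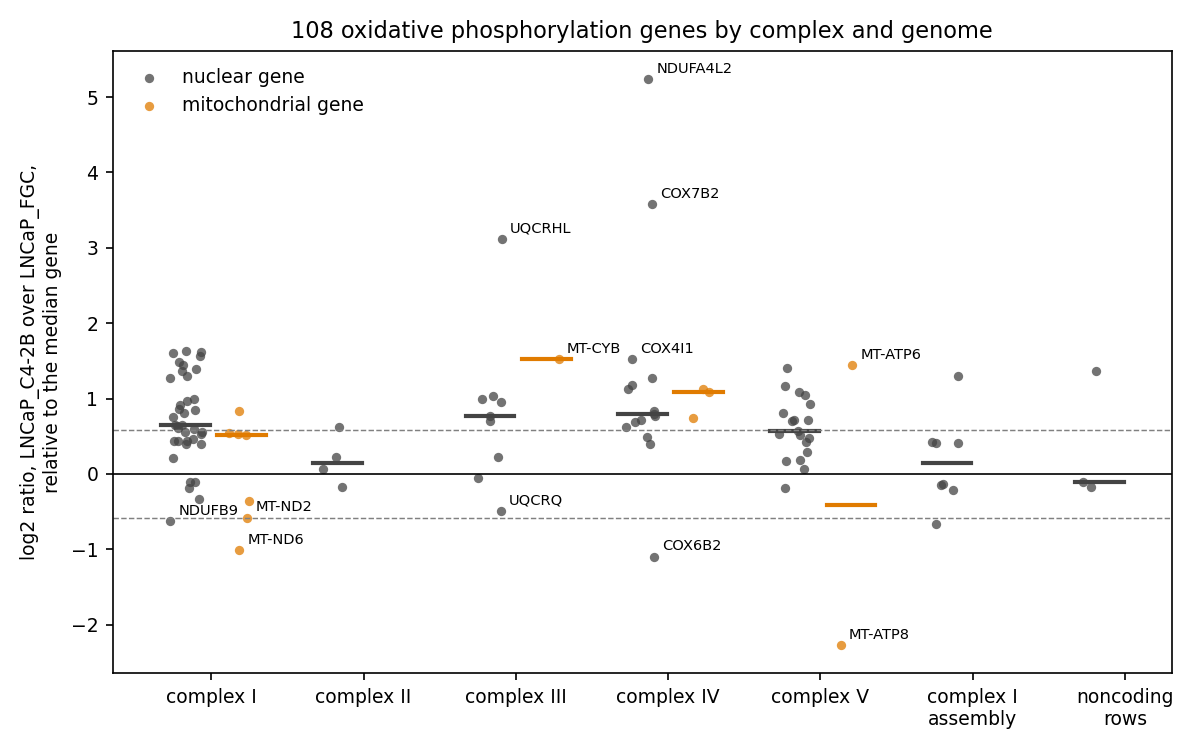
Each point is 1 of the 108 members, placed by complex and genome, and the vertical axis is its log2 ratio between the libraries relative to the median gene (0, solid line), with dashed lines at 1.5-fold. Short bars are medians. Nuclear members of complexes I, III, IV and V lie mostly above 0, those of complex II near 0, and the mitochondrial genes spread from -2.27 (MT-ATP8) to 1.52 (MT-CYB).

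Complex I, the NADH dehydrogenase, has 37 nuclear members, and 22 of them (59.5%) were higher in LNCaP_C4-2B, 1 was lower and 14 lay within. Counts by complex, here and below, stand beside 26.0% of all genes called higher. Among genes spanning under 20 kb with a mean of at least 20 CPM it was 42.0%. Their sum was 8407 CPM in LNCaP_FGC and 9925 CPM in LNCaP_C4-2B (ratio 1.18, 1.17 to 1.19). The highest was NDUFS7, an iron-sulfur subunit at the junction with the membrane arm (chromosome 19, 1383527 to 1395589 in GRCh38), at 81.3 and 180 CPM (2.21-fold, 2.12 to 2.31). Accessory subunits NDUFB8 (82.3 and 181 CPM), NDUFA9 (39.6 and 85.9 CPM) and NDUFA13 (254 and 536 CPM), and the FMN-binding core subunit NDUFV1 (72.5 and 145 CPM), had ratios of 2.20, 2.17, 2.11 and 2.00. In these 5 genes LNCaP_C4-2B was the higher library by either scale. At the other end, the accessory subunit NDUFB9 had 585 CPM in LNCaP_FGC and 270 CPM in LNCaP_C4-2B, 2.16-fold lower (2.11 to 2.22), and was the member called lower, with a relative log2 ratio of -0.63. NDUFS1, the largest iron-sulfur subunit, at 102 and 57.7 CPM, and NDUFB3, at 79.3 and 49.8 CPM, were lower by CPM but within 1.5-fold of the median gene (-0.34 and -0.19).

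The core of the enzyme did not move as a block. Among its hydrophilic subunits, NDUFS1, NDUFS3, NDUFS7, NDUFS8, NDUFV1 and NDUFV2 had relative log2 ratios of -0.34, 1.30, 1.63, 0.65, 1.48 and 0.61, so that NDUFS1 lay below the median gene while the other 5 named were called higher. In CPM, NDUFS3 had 56.5 and 99.2, NDUFS8 had 259 and 289, and NDUFV2 had 389 and 422 in LNCaP_FGC and LNCaP_C4-2B.

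Complex II, succinate dehydrogenase, also belongs to the TCA cycle. Its 4 genes summed to 254 CPM in LNCaP_FGC and 194 CPM in LNCaP_C4-2B, 1.31-fold lower (1.27 to 1.35). By CPM this was the largest fold decrease of the 5 nuclear sums, and that of complex III was lower too. The SDH genes span 33.2 to 48.8 kb. Nuclear members spanning 20 kb or more had a median relative log2 ratio of 0.45, against 0.72 for shorter ones, and the part of span was not tested. On the other scale the sum lay 0.10 above the median gene, so its direction depends on the scale. The flavoprotein gene SDHA had 42.7 and 46.8 CPM (relative log2 ratio 0.62) and was the member called higher, a share (25.0%) near the 26.0% of all genes. The iron-sulfur subunit SDHB had 53.4 and 39.7 CPM, and the membrane anchors SDHC and SDHD had 116 and 73.1 CPM and 41.6 and 34.6 CPM, with relative log2 ratios of 0.06, -0.18 and 0.22. These 3 were below LNCaP_FGC by CPM, and SDHB and SDHD above the median gene.

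In complex III, the cytochrome bc1 complex, 6 of 9 nuclear members were higher and none lower, although the sum went from 4466 to 4180 CPM (ratio 0.936, 0.929 to 0.943). Here too the direction depends on the scale, the sum having a relative log2 ratio of 0.39. The core proteins UQCRC1 (134 and 185 CPM) and UQCRC2 (105 and 154 CPM), the Rieske iron-sulfur protein UQCRFS1 (219 and 254 CPM), UQCR10 (572 and 694 CPM) and the hinge protein UQCRH (811 and 1148 CPM) were higher. The small subunit UQCRQ, which lies beside cytochrome b, went the other way, with 1064 CPM in LNCaP_FGC and 542 CPM in LNCaP_C4-2B (1.96-fold lower, 1.93 to 2.00), and UQCRB had 827 and 571 CPM. Relative to the median gene they stood at -0.49 and -0.05, neither of which passed 1.5-fold. The largest ratio was that of UQCRHL, an intronless relative of UQCRH on chromosome 1, at 4.01 and 24.8 CPM (6.18-fold, 5.17 to 7.44). UQCRHL shares 7.65% of its transcript's 50-base words with UQCRH transcripts, so some of its reads could have come from UQCRH or have been dropped as ambiguous, and its level is uncertain.

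Complex IV, cytochrome c oxidase, had the largest share of higher nuclear members. Of 15, 12 (80.0%) were higher and 1 was lower, and the sum was 4952 CPM in LNCaP_FGC and 6495 CPM in LNCaP_C4-2B (ratio 1.31, 1.30 to 1.32). COX4I1, the ubiquitous form of the largest nuclear subunit, had 606 and 1244 CPM (2.05-fold, 2.02 to 2.09). COX6B1 had 321 and 551 CPM, COX5B 227 and 368 CPM, and COX5A 310 and 484 CPM, and these 3 subunits were likewise higher by either scale. At the low end COX7C, the member of the complex with the lowest ratio above 20 CPM, had 1054 and 987 CPM (relative log2 ratio 0.39), and COX8A had 383 and 385 CPM (0.49).

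Several subunits of complex IV have another gene that is used in particular tissues or states. The muscle and heart forms COX6A2 and COX7A1 and the lung form COX4I2 had 0 UMIs in both libraries, which allows at most 0.162% of the 1850 cells of each to hold a UMI and does not limit the share of cells that use the gene, and their ubiquitous partners COX6A1 (360 and 423 CPM), COX7A2 (462 and 531 CPM) and COX4I1 carried the reads. COX7A2L, a relative of COX7A2 known from supercomplex assembly, had 69.3 and 84.2 CPM. The testis forms differed among themselves. COX6B2 had 12 and 4 UMIs, a relative log2 ratio of -1.10 whose CPM interval spans 1 (ratio 0.333, 0.0784 to 1.10), and COX8C had 2 and 0 UMIs. COX7B2, by contrast, had 78 and 666 UMIs (2.22 and 18.9 CPM, 8.54-fold, 6.75 to 10.9), while its ubiquitous partner COX7B had 347 and 441 CPM.

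The largest difference of any member was that of NDUFA4L2, the relative of the complex IV subunit NDUFA4 (a former complex I gene by name) and known as a hypoxia-induced gene. It is encoded on chromosome 12 (57234903 to 57240715) and had 32 UMIs in the LNCaP_FGC library against 862 in LNCaP_C4-2B, or 0.910 and 24.5 CPM (26.9-fold, 18.9 to 39.6). NDUFA4 itself had 469 and 580 CPM (1.24-fold, 1.21 to 1.26). With each cell thinned to 11901 UMIs, NDUFA4L2 was found in 1.23% of LNCaP_FGC cells (0.754 to 1.90) and in 14.8% of LNCaP_C4-2B cells (13.2 to 16.6), and COX7B2 in 2.96% (2.19 to 3.90) and 19.6% (17.7 to 21.6). No cell type that should lack these genes was in the libraries, so the share that free RNA gives was not measured. The 2 genes were spread differently over LNCaP_C4-2B cells: the 185 cells richest in it held 75.3% of the NDUFA4L2 UMIs, with a variance over mean of 3.87 and up to 14 UMIs in a cell, whereas the 185 richest in COX7B2 held 50.3% of its UMIs, with a variance over mean of 1.18 and at most 4. In LNCaP_C4-2B, NDUFA4L2 stood at 36.9 CPM in cells called G1, 11.4 CPM in S and 17.5 CPM in G2M, and COX7B2 at 21.0, 18.7 and 16.4 CPM.

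Complex V, the ATP synthase, had the nuclear sum that differed least between the libraries by CPM, whereas relative to the median gene complex II differed least (0.10, against 0.53 for complex V). Of its 19 nuclear members 9 were higher (47.4%) and none lower, a share near the 42.0% of all short and well expressed genes. The sum was 9019 CPM in LNCaP_FGC and 9288 CPM in LNCaP_C4-2B (ratio 1.03, 1.02 to 1.03). The delta subunit gene ATP5F1D had 486 and 920 CPM (1.89-fold, 1.86 to 1.93), and the catalytic beta subunit ATP5F1B had 479 and 599 CPM. The alpha subunit ATP5F1A, at 402 and 472 CPM, and the inhibitory factor ATP5IF1, at 358 and 422 CPM, were also higher relative to the median gene (both 0.72). ATP5ME, a small membrane subunit, had 1147 and 720 CPM (1.59-fold lower, 1.57 to 1.62) and the epsilon subunit ATP5F1E 1688 and 1264 CPM, both within 1.5-fold of the median gene (-0.19 and 0.07). The 3 genes of the identical ring subunit c were not shifted alike: ATP5MC1 had 289 and 461 CPM, ATP5MC3 had 306 and 464 CPM, and ATP5MC2 had 557 and 449 CPM. ATP5MC1 and ATP5MC3 were higher (1.16 and 1.09), and ATP5MC2 stood below LNCaP_FGC by CPM and 0.17 above the median gene. ATP5MGL, a relative of ATP5MG (534 and 619 CPM), had 33 and 34 UMIs.

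The NDUFAF genes build complex I and are not part of it, and their median lay below that of its subunits. Of the 8, 1 was higher (12.5%, against 26.0% of all genes), 1 lower and 6 within. The median relative log2 ratio was 0.14, against 0.65 for the 37 subunit genes. Their sums lay closer, the NDUFAF genes having 740 and 773 CPM and a relative log2 ratio of 0.55, against 0.73 for complex I. Whether gene span has a part in this was not tested. NDUFAF3 had 172 and 304 CPM (1.76-fold, 1.71 to 1.82) and NDUFAF4, its binding partner, 44.0 and 19.8 CPM (2.22-fold lower, 2.03 to 2.43). NDUFAF6 had 31.7 and 19.6 CPM, relative log2 ratio -0.21. The 8 nuclear rows under 20 CPM in both libraries, among them COX7B2, COX6B2, ATP5MGL and the noncoding NDUFV2-AS1, NDUFB2-AS1 and NDUFA6-DT, ranged in relative log2 ratio from -1.10 to 3.58. The antisense rows rest on the strand of the reads, which a 3′ kit keeps.

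The 13 mitochondrial genes summed to 62703 CPM in LNCaP_FGC and 83528 CPM in LNCaP_C4-2B (ratio 1.33, 1.33 to 1.33), but the genes moved apart. Of the 13, 6 (46.2%) were higher relative to the median gene, 2 were lower and 5 lay within. Of all genes 26.0% were higher, and of short and well expressed genes 42.0%. MT-CYB, the cytochrome b of complex III, had 4209 and 8646 CPM (2.05-fold, 2.04 to 2.07). MT-ATP6, subunit a of the ATP synthase, had 7118 and 13827 CPM (1.94-fold, 1.93 to 1.95). The mitochondrial subunits of complex IV also stood above LNCaP_FGC, MT-CO1 with 9373 and 11147 CPM, MT-CO2 with 9741 and 14657 CPM and MT-CO3 with 9238 and 14347 CPM.

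The 7 complex I genes of the mitochondrial genome did not share this increase by CPM, their sum being 21863 CPM in LNCaP_FGC and 20732 CPM in LNCaP_C4-2B (ratio 0.948, 0.945 to 0.951, relative log2 ratio 0.41). MT-ND4 had 6276 and 7980 CPM and was the only one of the 7 called higher. MT-ND1 (3234 and 3366 CPM), MT-ND3 (4667 and 4794 CPM) and MT-ND5 (1748 and 1798 CPM) differed by at most 1.04-fold. MT-ND2 had 4238 and 2021 CPM (2.10-fold lower, 2.08 to 2.12), MT-ND4L 846 and 472 CPM (1.79-fold lower, 1.76 to 1.83) and MT-ND6 854 and 302 CPM (2.82-fold lower, 2.76 to 2.89). Their relative log2 ratios were -0.58, -0.36 and -1.01, of which MT-ND6 passed 1.5-fold. MT-ND2 lay just inside the limit, and leaving out cells above 10% mitochondrial UMIs, keeping G1 cells or asking for 100 UMIs brought the lower genes to 3. The lowest of all members was MT-ATP8, with 1161 CPM in LNCaP_FGC and 171 CPM in LNCaP_C4-2B (6.77-fold lower, 6.59 to 6.96).

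**Figure D2:**
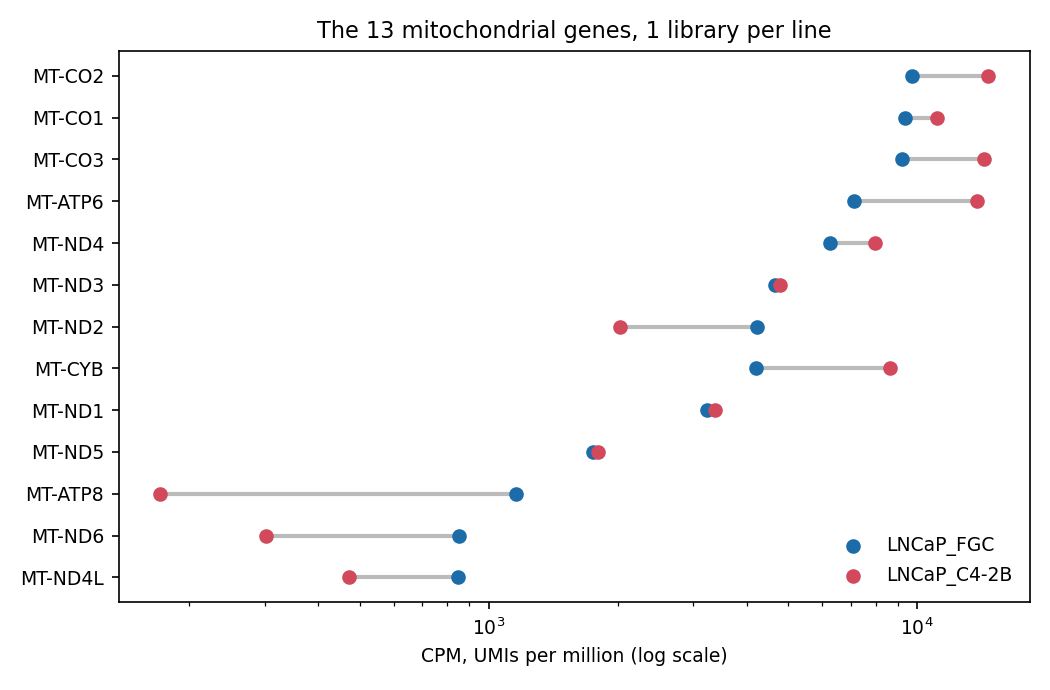
The 13 mitochondrial protein genes are listed by level in LNCaP_FGC, with CPM on a log axis and 1 point per library. MT-CYB and MT-ATP6 lie about 1.94-fold or more to the right in LNCaP_C4-2B, whereas MT-ATP8, MT-ND6, MT-ND2 and MT-ND4L lie to the left.

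MT-ATP8 and MT-ND4L are each carried on 1 mRNA together with the neighbour downstream, MT-ATP6 and MT-ND4, and the reading frames of each pair overlap. The GRCh38 sequence of the 2 overlaps is shown because the genes on either side of it differed in opposite directions between the libraries. Capitals mark the bases that belong to both genes, 46 bases at chrM:8527-8572 and 7 bases at chrM:10760-10766, on the plus strand. The capitals open with the ATG start codon of the downstream gene and close with the stop codon of the upstream gene (TAG or TAA), and 15 bases on each side are in lower case.
MT-ATP8 and MT-ATP6, chrM:8512-8587: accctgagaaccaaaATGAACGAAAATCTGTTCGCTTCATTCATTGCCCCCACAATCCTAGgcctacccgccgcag
MT-ND4L and MT-ND4, chrM:10745-10781: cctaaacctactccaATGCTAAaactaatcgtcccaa

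Within the first pair, MT-ATP8 took 14.0% of the UMIs of both genes in the first line and 1.22% in the other, 13.2-fold less relative to its partner. The pair as a whole had 8279 and 13998 CPM (ratio 1.69, 1.68 to 1.70). Within the second pair, MT-ND4L took 11.9% and 5.58%, and the pair held 7122 and 8452 CPM (1.19, 1.18 to 1.19). MT-ND6 is the single protein gene on the light strand, and it abuts MT-ND5 on the opposite strand with no shared base. Its share of the UMIs of these 2 genes was 32.8% and 14.4%. In all 3 pairs the gene with fewer UMIs held the smaller share in LNCaP_C4-2B. Whether this lies in the RNA, in where the kit primed or in how reads at shared bases were assigned was not tested.

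The shift in the pairs ran through the cells of a library rather than through a few of them. Over cells with at least 50 UMIs of the pair, the share of MT-ATP8 had a median of 14.1% in 1832 LNCaP_FGC cells, with 5% of cells below 6.32%, and a median of 1.15% in 1839 LNCaP_C4-2B cells, with 5% of cells above 2.79%, so that the central 90% of the 2 libraries did not overlap. For MT-ND4L the medians were 12.1% and 5.64%, and the central ranges (5.62% to 20.9% and 2.25% to 10.9%) overlapped. For MT-ND6 beside MT-ND5 they were 32.8% in 856 cells and 14.0% in 467 cells, with central ranges that also overlapped (from 19.6% in LNCaP_FGC and up to 27.7% in LNCaP_C4-2B). MT-ATP8 was found in 99.8% of LNCaP_FGC cells and 85.0% of LNCaP_C4-2B cells thinned to 11901 UMIs.

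**Figure D3:**
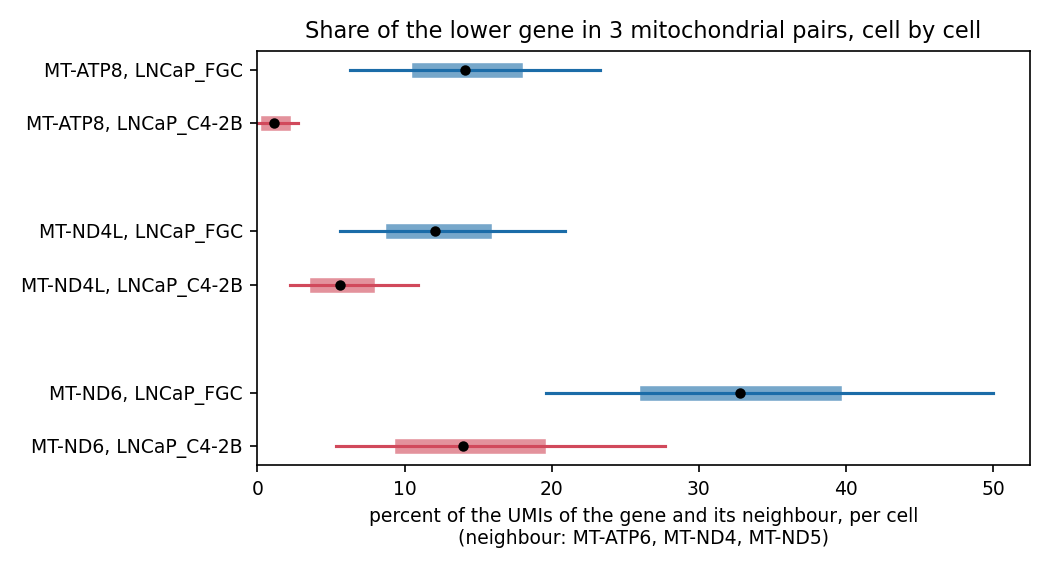
For each cell with at least 50 UMIs of a pair, the percent held by MT-ATP8 (beside MT-ATP6), MT-ND4L (beside MT-ND4) and MT-ND6 (beside MT-ND5) was computed, and thin lines span the central 90% of cells, thick lines the central 50%, and points mark medians. The MT-ATP8 lines of LNCaP_FGC (from 6.32%) and LNCaP_C4-2B (up to 2.79%) do not overlap.

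The balance of the 2 genomes shifted in opposite directions by complex. For every UMI of a nuclear subunit gene LNCaP_FGC had 2.31 mitochondrial UMIs and LNCaP_C4-2B had 2.78, a change of 1.20-fold. In complex I this ratio went down, from 2.60 to 2.09. In complex III it went from 0.942 to 2.07, in complex IV from 5.73 to 6.18 and in complex V from 0.918 to 1.51. The mitochondrial part of complex III is MT-CYB alone. In complex I, MT-ND2, MT-ND4L and MT-ND6 were lower by CPM, and MT-ND1, MT-ND3, MT-ND4 and MT-ND5 were not. The part of priming and of read assignment, open for the pairs above, was not tested here either. These ratios do not depend on how the libraries were scaled, but they compare UMIs and not transcripts per length. By CPM, complex I had more nuclear and fewer mitochondrial UMIs in LNCaP_C4-2B, and complex III the reverse. Relative to the median gene all 4 of these sums were above 0 (0.73 and 0.41 in complex I, 0.39 and 1.52 in complex III).

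Relative to its median, the nuclear share of a cell's UMIs was spread less widely over cells than the mitochondrial share. The nuclear subunit genes took a median of 2.70% of a cell's UMIs in LNCaP_FGC (5% to 95% of cells, 2.17% to 3.32%) and 3.01% in LNCaP_C4-2B (2.37% to 3.59%). The mitochondrial genes took 6.04% (4.19% to 9.13%) and 8.27% (5.83% to 11.5%), with the upper tail cut at 15% by the authors' filter, and 51 LNCaP_FGC and 318 LNCaP_C4-2B cells were above 10%. In cells thinned to 11901 UMIs, the variance over mean of the summed UMIs was 5.69 and 5.47 for the nuclear genes and 47.9 and 40.1 for the mitochondrial genes, where 1 is the value of counting noise alone. For single nuclear genes the median was 1.19 and 1.12, with the largest values for ATP5F1E (2.62) and UQCRQ (2.02) in LNCaP_FGC, and for single mitochondrial genes it was 5.56 and 4.84. This measure rises with the level, and ATP5F1E and UQCRQ were abundant (means of 19.9 and 12.6 UMIs per cell). It therefore ranks neither genes of different levels nor the 2 genomes.

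**Figure D4:**
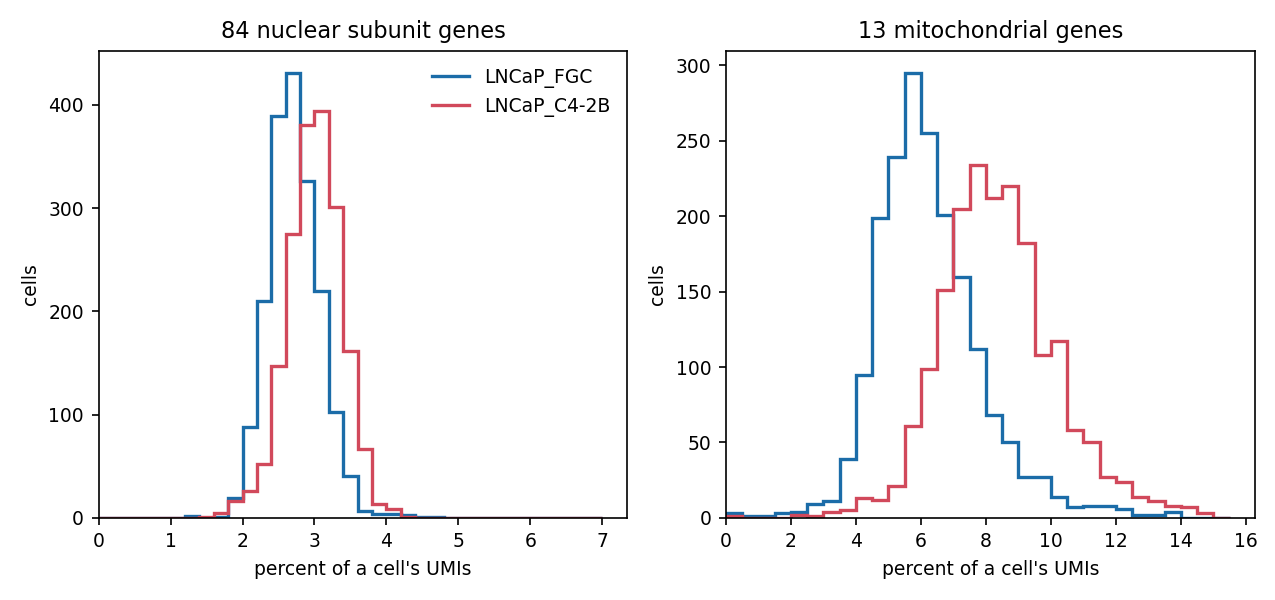
Histograms of the percent of a cell's UMIs from the 84 nuclear subunit genes (left) and the 13 mitochondrial genes (right), with 1850 cells per library. The median moves from 2.70% to 3.01% on the left and from 6.04% to 8.27% on the right, and on both sides the libraries overlap.

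Cells rich in nuclear subunit transcripts were compared with those rich in mitochondrial ones. Across thinned cells, the Spearman correlation of the 2 sums was -0.02 in LNCaP_FGC (1623 cells) and 0.00 in LNCaP_C4-2B (1665 cells). For nuclear subunits of different complexes it was higher, with 0.42 and 0.54 between complexes I and V, 0.40 and 0.38 between I and IV, and 0.18 and 0.39 between I and III. The nuclear sum correlated with the ribosomal protein sum at 0.37 and 0.30. These correlations describe cells of 1 library that share its depth and compete for a fixed number of UMIs, and are not replicated.

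By cell cycle phase, called from S and G2M genes, both genomes stood highest in G1 and lowest in G2M in both lines. The nuclear subunit genes summed to 28053, 27071 and 25875 CPM in the 804 G1, 463 S and 583 G2M cells of LNCaP_FGC, and to 30598, 30322 and 29210 CPM in the 904, 390 and 556 cells of LNCaP_C4-2B. The mitochondrial genes summed to 68162, 59751 and 57942 CPM, and to 87007, 83062 and 79185 CPM. Every phase of LNCaP_C4-2B stood above every phase of LNCaP_FGC for both sums. G1 over the other phases gave 1.06 and 1.03 for the nuclear and 1.16 and 1.08 for the mitochondrial genes. Relative to the median gene, the median log2 ratio in G1 was 0.07 and 0.09 for the nuclear and 0.23 and 0.16 for the mitochondrial genes. Of the mitochondrial genes, MT-ND6 in LNCaP_FGC stood apart, at 855 CPM in G1 and 853 CPM in the other phases (1.00, 0.979 to 1.03), whereas the other 12 were 1.10-fold to 1.22-fold higher in G1. In LNCaP_C4-2B all 13 were 1.04-fold to 1.14-fold higher in G1.

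**Figure D5:**
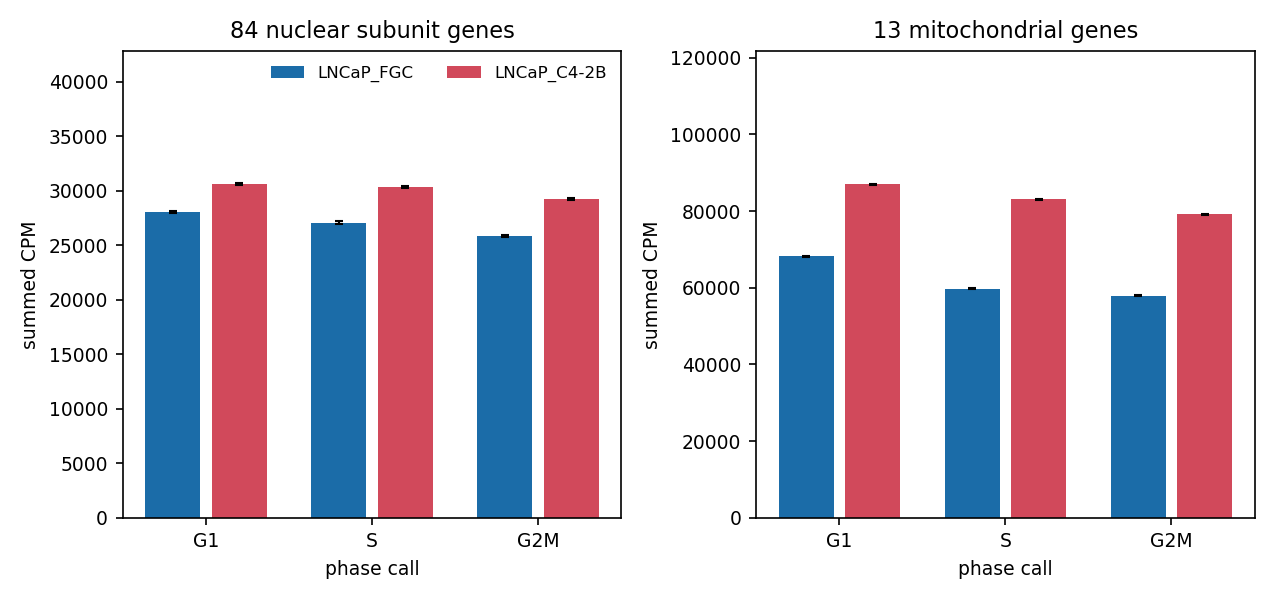
Bars give the summed CPM of the 84 nuclear subunit genes (left) and the 13 mitochondrial genes (right) in cells called G1, S and G2M, per library, from 0, with exact Poisson 95% intervals as error bars that are hardly wider than the line. G1 is the tallest bar in each library (28053 and 30598 CPM on the left, 68162 and 87007 CPM on the right).

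Complex IV had the clearest phase pattern among the nuclear sums, G1 over the other phases being 1.11 (1.10 to 1.13) in LNCaP_FGC and 1.08 (1.07 to 1.09) in LNCaP_C4-2B, with 15 and 12 of its 15 genes above 1. Complex I was at 1.05 and 1.00, and complex II at 0.965 and 0.981. Relative to the median gene, the median log2 ratios in G1 were 0.20 and 0.18 for complex IV, 0.04 and 0.05 for complex I, and -0.17 and -0.05 for complex II. The share of all genes above 1 in G1 was not computed. Against the G1 trend of the nuclear sum, UQCRFS1 and NDUFA6 were among the 3 lowest genes in G1 in both lines. UQCRFS1 had 194 CPM in G1 and 238 CPM in the other phases of LNCaP_FGC (1.23-fold lower, 1.17 to 1.29) and 232 and 271 CPM in LNCaP_C4-2B. NDUFA6 had 116 and 147 CPM in LNCaP_FGC, and 130 and 150 CPM in LNCaP_C4-2B. The third was NDUFS3 in LNCaP_FGC (52.3 and 59.6 CPM) and NDUFS8 in LNCaP_C4-2B (264 and 309 CPM). The highest 3 in G1 differed by line, being NDUFA3, NDUFB4 and NDUFA4 in LNCaP_FGC (1.22, 1.20 and 1.19) and COX7C, ATP5MC2 and COX6C in LNCaP_C4-2B (1.15 each).

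S and G2M gave smaller differences among the nuclear members of at least 50 CPM. In S, UQCRFS1 (1.16), NDUFA6 (1.15) and NDUFB3 (1.14) were highest and NDUFA3, COX7A2 and COX6A1 lowest (0.907, 0.910 and 0.926) in LNCaP_FGC. In LNCaP_C4-2B, NDUFA6, ATP5MC1 and NDUFA9 (1.14 each) were highest in S and SDHC, ATP5MC2 and COX6C lowest (0.890, 0.892 and 0.902). In G2M, SDHB (1.15), NDUFA6 (1.13) and UQCRFS1 (1.10) were highest in LNCaP_FGC, with NDUFB4, NDUFA4 and COX6C lowest (0.834, 0.837 and 0.859). UQCRFS1 (1.13), NDUFS8 (1.12) and NDUFS3 (1.10) were highest in G2M in LNCaP_C4-2B, with UQCR11, COX7C and COX6B1 lowest (0.872, 0.884 and 0.895).

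LNCaP_FGC cells differ in ETV1, an ETS factor gene rearranged in this line. With cells thinned to 11901 UMIs, 622 cells without an ETV1 UMI had 26459 CPM of nuclear subunit genes and 743 cells with at least 2 had 27569 CPM (ratio 0.960, 0.954 to 0.965). By CPM the mitochondrial genes went the other way, with 64825 and 61033 CPM (1.06, 1.06 to 1.07). That is a log2 ratio of 0.09, and the median gene stood at 0.08, so relative to it the mitochondrial sum hardly differed. The nuclear sum, at -0.06, lay below the median gene. Both CPM differences were smaller than those between the lines. Nuclear members at the ends were COX6C (303 and 388 CPM), NDUFA4 (411 and 512 CPM) and NDUFA1 (251 and 302 CPM), lower without ETV1, and NDUFV1 (82.9 and 64.1 CPM), NDUFAB1 (257 and 211 CPM) and NDUFA8 (117 and 96.9 CPM), higher without it. MT-ATP8 had 1290 and 1129 CPM (1.14, 1.11 to 1.17) and MT-ND6 816 and 938 CPM (0.870, 0.841 to 0.899), so these 2 genes, both lower in LNCaP_C4-2B, differed in opposite directions between the ETV1 classes.

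The chromosomes named here were picked by their values, and copy number was not measured here. On chromosome 19, 9 of 11 members were higher, with a median relative log2 ratio of 1.27 against 0.08 for all 1061 genes tested there, and on chromosome 16 all 4 (NDUFB10, UQCRC2, NDUFAB1 and COX4I1) were higher, with 1.33 against 0.22. Beside these counts, 26.0% of all genes and 42.0% of short and well expressed genes were higher, and no share was computed by chromosome. On chromosome 5 the 7 members had a median of 0.39 against -0.45, and ran from -0.49 (UQCRQ) to 0.62 (SDHA). On chromosome 8, the lowest, the 4 members had a median of -0.13 against 0.03, and 1 was higher. Over the 95 nuclear members the log2 ratio correlated weakly with the median of the member's chromosome (Pearson r 0.18), and the median member stood 0.62 above its chromosome on the log2 scale.

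Genes that serve the chain without belonging to it are given by list, to be read against the 26.0% of all genes that were higher. That share was 34.9% for genes spanning under 20 kb and 42.0% for those that also had a mean of at least 20 CPM. No share matched for span and level was computed for a list. The genes named as the ends of a list are those with at least 20 CPM in one or both libraries. Of 78 genes of the mitochondrial ribosome, which makes the 13 mitochondrial proteins, 47 were higher and 5 lower, with a median relative log2 ratio of 0.69. MRPL23 had 14.8 and 103 CPM and MRPL1 had 222 and 46.9 CPM. Of 7 carriers of nucleotides and phosphate 6 were higher (median 0.84), VDAC2 at 177 and 291 CPM being highest and VDAC1 at 436 and 425 CPM lowest. Of 13 antioxidant and uncoupling genes 7 were higher and none lower (median 0.68), from PRDX5 (127 and 205 CPM) to SOD2 (44.6 and 23.9 CPM), with NNT, under that level, above them all (0.626 and 4.18 CPM). Of 12 genes of cytochrome c and coenzyme Q synthesis 4 were higher, a share near that of all genes, and none lower (median 0.52), from COQ5 (24.8 and 41.8 CPM) to COQ2 (27.0 and 15.8 CPM).

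Other lists had lower medians. Of 34 assembly factors of complexes II to V, 12 were higher and 4 lower (median 0.29), the lowest being LYRM7, which matures the Rieske protein, at 150 and 36.0 CPM, and the highest UQCC3 at 65.9 and 134 CPM. The 15 assembly factors of complex I, which include the NDUFAF members above, had 4 higher and 1 lower (median 0.15), from ECSIT (25.2 and 57.3 CPM) to NDUFAF4. Of 24 TCA cycle and pyruvate genes 10 were higher and 1, the citrate synthase gene CS (161 and 64.5 CPM), was lower (median 0.24), and PDK1, a kinase that inactivates pyruvate dehydrogenase, was highest at 18.0 and 47.0 CPM. Of 24 protein import genes 7 were higher and 1 lower (median 0.22), from TIMM10 (132 and 216 CPM) to TIMM21 (61.9 and 26.1 CPM).

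Genes that keep and transcribe mitochondrial DNA did not stand above the median gene. Of 25, 4 were higher and 4 lower (median -0.23), from SLIRP, which binds mitochondrial mRNA, at 418 and 478 CPM to FASTKD5 at 20.1 and 7.82 CPM. Under 20 CPM, TFB1M (10.7 and 13.4 CPM) stood above SLIRP and FASTKD1 (18.6 and 7.08 CPM) below FASTKD5. TFAM, which packages and transcribes this DNA and was named after its values were seen, had 141 and 68.7 CPM. Of 13 nuclear regulators of respiration 2 were higher and 2 lower (median -0.24). The lower ones were ESRRG (48 and 5 UMIs) and EPAS1 (31 and 6 UMIs), and the higher ones YY1 and PPARGC1A (6 and 12 UMIs). All but YY1 of these calls rest on few UMIs. YY1 had 145 and 166 CPM. GABPB2, a subunit of an ETS factor and the lowest of at least 20 CPM, had 27.7 and 13.6 CPM and lay within 1.5-fold of the median gene (-0.53).

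The promoters of nuclear oxidative phosphorylation genes are known for sites of NRF1, of the ETS factor GABPA and of YY1. RefSeq promoters (GRCh38.p14, 250 bases before to 50 after the start) were at hand for 68 of the 84 nuclear subunit genes. The NRF1 core GCGCATGC was found on either strand in 13 of them (19.1%) and in 3.05% of all 35116 promoters, the ETS core CCGGAAG in 20 (29.4%) and in 10.3%, and the YY1 core ATGGCGGC in 12 (17.6%) and in 1052 of all promoters. Each member has 1 promoter here, whereas all promoters were counted without limit to 1 per gene or to genes measured here. None of these words contains another. At least 1 of the 3 was present in 34 of the 68 and in 14.8% of all promoters. Members with the NRF1 core were called higher in 4 of 13 cases (30.8%) and those without it in 35 of 55 (63.6%), with median relative log2 ratios of 0.51 and 0.72. For the ETS core the counts were 9 of 20 (45.0%) and 30 of 48 (62.5%), and for the YY1 core 8 of 12 (66.7%) and 31 of 56 (55.4%). Beside these shares, 26.0% of all genes and 42.0% of short and well expressed genes were called higher. The 30.8% lies near the first and the 45.0% near the second. The groups with a core are small, and the part of a motif was not tested. The motif matches are counts of letters and not of bound sites.

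COX4I1 and UQCRQ are shown because both promoters hold the ETS core, in capitals, once, although the genes lay at opposite ends of the list. For COX4I1 the match is on the reverse strand, and the annotated start differs from that of the longest transcript.
COX4I1, chr16:85799445-85799744, plus strand: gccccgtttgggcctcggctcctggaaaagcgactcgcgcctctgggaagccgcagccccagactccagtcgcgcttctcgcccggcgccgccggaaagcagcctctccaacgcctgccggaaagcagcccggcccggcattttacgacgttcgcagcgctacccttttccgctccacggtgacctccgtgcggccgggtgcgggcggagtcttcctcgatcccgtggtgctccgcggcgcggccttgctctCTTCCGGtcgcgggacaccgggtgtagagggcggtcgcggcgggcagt
UQCRQ, chr5:132866392-132866691, plus strand: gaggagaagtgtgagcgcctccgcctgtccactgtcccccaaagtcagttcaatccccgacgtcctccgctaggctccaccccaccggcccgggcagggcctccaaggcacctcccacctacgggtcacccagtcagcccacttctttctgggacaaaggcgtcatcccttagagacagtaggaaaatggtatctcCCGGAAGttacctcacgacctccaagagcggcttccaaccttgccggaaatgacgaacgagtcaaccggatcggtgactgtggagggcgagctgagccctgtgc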

How the data were processed

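Single-cell RNA-Seq was deposited for LNCaP_FGC and LNCaP_C4-2B, 1 library each. The deposited matrices hold whole-number counts of UMIs. The submitters' processing notes name Cell Ranger 6.0, GRCh38 and Seurat 5.011. Sources used here do not give the annotation release. The authors removed cells by genes, reads, hemoglobin, ribosomal and mitochondrial percent (above 15) and doublet score, drew 1850 cells per line, and thinned the counts to a common mean of 19000 UMIs per cell, so equal depth says nothing of RNA content. Removing cells rich in mitochondrial reads trims the upper end of the mitochondrial genes described here. No further doublet caller was run and free RNA was not measured.

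Counts were summed over cells and scaled to CPM (1 UMI is 0.0284 CPM) in Python 3.11.15 with numpy 2.4.6, scipy 1.17.1 and pandas 2.3.3. Ratios have exact conditional, levels exact Poisson and shares exact Clopper-Pearson 95% intervals, for counting error only, and a share of 0 has a limit of 3 counts. The ratio calculation was tested on simulated data. Within each library, 43 S and 54 G2M genes served to call phases (CellCycleScoring of Seurat 5.3.0 under R 4.3.3). Cells were thinned to 11901 UMIs, which left out 227 and 185 cells. Of 17897 genes tested, 14733 (82.3%) were placed by symbol in GENCODE 44 on GRCh38, and all 108 members. ATP5MD and ATP5MPL are ATP5MK and ATP5MJ there. Columns of other samples: 0. Values of a few single genes are not reported here.

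The members and lists were chosen with earlier results of these data known. Genes were named by rule: all 13 mitochondrial genes, the 8 highest and 8 lowest nuclear ratios among members of at least 20 CPM, the ends of each complex and list, all paralogue pairs, and the 3 highest and lowest nuclear members of at least 50 CPM by phase and ETV1 class. Others were named for their role or rank after their values were seen. Alternatives were other scalings (median-of-ratios, TMM in edgeR 4.0.16, no ribosomal or mitochondrial genes), UMI minimums of 1 and 100, 2-fold, cells of at most 10% mitochondrial UMIs, G1 cells, joint phase calls, another ETV1 class and unthinned cells. The background of genes of at least 20 CPM that also span under 20 kb was added after the data were seen.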

Additional observations from a re-analysis of the deposited data

How the results depend on the processing

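The nuclear and the mitochondrial total kept their direction under the alternatives run, and the nuclear sums of complexes II and III did not. By CPM their log2 ratios were -0.39 and -0.10, scaled without ribosomal protein and mitochondrial genes -0.24 and 0.05, with median-of-ratios factors 0.08 and 0.37, and with TMM factors 0.07 and 0.36. The log2 ratio of the nuclear total (0.15) was 0.30 when scaled without ribosomal protein and mitochondrial genes, 0.62 with median-of-ratios factors, 0.61 with TMM factors and 0.12 in G1 cells, and the mitochondrial total (0.41) was 0.57, 0.88, 0.87 and 0.35, and 0.35 in cells with at most 10% mitochondrial UMIs. By CPM 3 of the 5 nuclear complexes had the higher sum in LNCaP_C4-2B, and with median-of-ratios or TMM factors all 5. Of the nuclear members, 52 were 1.5-fold above the median gene, 24 were 2-fold above it and 22 were 1.5-fold higher by CPM itself. The share of all genes called higher (26.0%) was 27.4% for genes of at least 20 CPM, 34.9% for genes under 20 kb and 42.0% for both, the last added after the data were seen. The mitochondrial ratio by ETV1 class (1.06) was 1.05 against all cells with an ETV1 UMI. Unthinned, NDUFA4L2 was found in 21.5% of LNCaP_C4-2B cells, and COX7B2 in 3.95% of LNCaP_FGC and 27.9% of LNCaP_C4-2B cells. Of 37 alternative values, the other 19 lay within 1.5 times of a reported count or within its counting interval. Among them the mitochondrial members called higher (6) were 9 with a minimum of 1 UMI and 4 at 2-fold or by CPM itself, the nuclear members called higher were 59 and 46 with minimums of 1 and 100 UMIs, and NDUFA4L2 was found in 1.73% of unthinned LNCaP_FGC cells.

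No paired analysis was possible because each line has 1 library. One library per line also means that none of the intervals covers the variation between cultures, and leaving out a replicate could not be run. At this depth 1 UMI is 0.0284 CPM, which limits COX6B2, COX8C and ATP5MGL and not the subunit genes above 20 CPM.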

Other observations

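A few cells had almost no mitochondrial transcripts. In LNCaP_FGC 4 of 1850 cells (0.216%, Clopper-Pearson interval 0.0589 to 0.553) had under 1% of their UMIs from the 13 genes, and in LNCaP_C4-2B 1 cell (0.0541%, 0.00137 to 0.301). The 4 LNCaP_FGC cells had a median of 10566 UMIs and 3219 genes, against 18302 UMIs and 4910 genes in the other cells. Their MALAT1 share was 0.397% against 1.64%, and their nuclear subunit genes took 3.60% of non-mitochondrial UMIs against 2.87%.

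Ranked by mitochondrial share, the lowest 463 and highest 463 LNCaP_FGC cells had medians of 4.71% and 7.92%, and their nuclear subunit genes took 2.82% and 2.96% of non-mitochondrial UMIs. In LNCaP_C4-2B the same ranks had medians of 6.59% and 10.4%, and the nuclear genes took 3.22% and 3.33%. In these cells the ribosomal protein genes took 23.8% and 26.0% of non-mitochondrial UMIs in LNCaP_FGC, and 30.2% and 31.5% in LNCaP_C4-2B. Whether cell quality has a part in these values was not tested.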
